A study of Homo sapiens with 8 samples.

Results

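The untreated baseline of A2780 cells was read from the 2 libraries of cells kept for 24 hours with DMSO, the solvent in which drugs are dissolved, out of 8 libraries in the series. A2780 is an established human ovarian carcinoma line, and the labels give its morphology as epithelial. All 8 libraries were polyA RNA of this line. The other libraries, from cells given olaparib, palbociclib or their combination for the same 24 hours, were not analysed here. The series text calls the libraries biological repeats without saying that they came from separate cultures, so the spread between them may be partly technical. With 2 libraries of 1 group there is no comparison between conditions and no test.

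Levels are FPKM, fragments scaled by exon length and by library size, as the authors deposited them, so levels of different genes can be set side by side per length. The mean of the DMSO libraries sets the class of a gene. A gene is called expressed at a mean of at least 1 FPKM, weak between 0.1 and 1 FPKM, and silent below 0.1 FPKM. The table listed 31721 Ensembl genes, each above 0 in at least 1 of the 8 libraries. A gene outside the table is called not listed, and nothing is said of its level.

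A cell line keeps part of the programme of the tissue it came from. Epithelial cells are held together by E-cadherin and fill their cytoplasm with keratins, and Müllerian epithelium, from which many ovarian carcinomas are thought to arise, is marked by the transcription factor PAX8. Mesenchymal cells carry vimentin, N-cadherin and fibrillar collagens under the factors TWIST1, SNAI2 and ZEB1. In dividing cells, D cyclins with CDK4 or CDK6 inactivate RB1 and release the E2F factors, and PARP1, the mismatch repair proteins and the p53 network answer to damaged DNA.

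The promoters of 5 genes that stand for contrasts in level are shown from 250 bases before to 50 bases after the annotated start, as given by RefSeq on GRCh38.p14, written 5′ to 3′ on the strand of the gene with each CG dinucleotide in capitals. PARP1 and PARP12 were the highest and the lowest member of the PARP family. FOXL2 is an expressed factor of ovarian granulosa cells and PAX8 a silent Müllerian factor. SLFN11 is a silent gene of the response to replication stress.
PARP1, chr1:226408044-226408343, minus strand: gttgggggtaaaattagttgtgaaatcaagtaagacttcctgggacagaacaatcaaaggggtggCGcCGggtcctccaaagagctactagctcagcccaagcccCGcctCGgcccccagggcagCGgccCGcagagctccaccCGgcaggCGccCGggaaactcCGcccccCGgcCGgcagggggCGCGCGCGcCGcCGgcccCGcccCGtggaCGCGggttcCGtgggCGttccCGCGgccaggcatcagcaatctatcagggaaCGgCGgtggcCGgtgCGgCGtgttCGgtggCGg
PARP12, chr7:140062902-140063201, minus strand: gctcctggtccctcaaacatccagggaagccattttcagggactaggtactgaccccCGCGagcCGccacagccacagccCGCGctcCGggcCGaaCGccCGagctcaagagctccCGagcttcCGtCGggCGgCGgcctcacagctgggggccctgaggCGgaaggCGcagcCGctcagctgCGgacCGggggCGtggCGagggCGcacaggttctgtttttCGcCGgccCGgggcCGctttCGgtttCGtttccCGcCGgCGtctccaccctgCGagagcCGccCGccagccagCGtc
FOXL2, chr3:138947088-138947387, minus strand: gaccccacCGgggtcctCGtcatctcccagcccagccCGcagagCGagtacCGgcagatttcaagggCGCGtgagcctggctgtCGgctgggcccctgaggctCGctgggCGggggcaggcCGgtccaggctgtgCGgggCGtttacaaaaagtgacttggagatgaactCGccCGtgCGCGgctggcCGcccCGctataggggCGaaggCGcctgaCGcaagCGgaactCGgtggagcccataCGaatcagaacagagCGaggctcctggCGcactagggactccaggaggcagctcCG
PAX8, chr2:113278872-113279171, minus strand: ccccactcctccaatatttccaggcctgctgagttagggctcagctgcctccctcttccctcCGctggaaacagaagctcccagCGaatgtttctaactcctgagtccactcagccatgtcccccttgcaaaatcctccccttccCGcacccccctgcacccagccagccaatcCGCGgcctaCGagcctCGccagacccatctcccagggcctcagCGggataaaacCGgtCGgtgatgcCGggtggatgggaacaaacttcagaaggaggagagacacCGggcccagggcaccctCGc
SLFN11, chr17:35373572-35373871, minus strand: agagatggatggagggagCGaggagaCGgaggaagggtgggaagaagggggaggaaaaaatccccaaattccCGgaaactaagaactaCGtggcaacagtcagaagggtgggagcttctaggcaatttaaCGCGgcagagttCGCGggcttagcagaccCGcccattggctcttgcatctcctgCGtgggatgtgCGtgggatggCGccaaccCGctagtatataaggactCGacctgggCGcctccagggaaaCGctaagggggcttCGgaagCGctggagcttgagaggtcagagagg
PARP1 and PARP12 stood at opposite ends of their family and held 33 and 35 CG dinucleotides in these 300 bases. FOXL2 held 28, SLFN11 18 and PAX8 13, against a median of 13 over 27305 RefSeq promoters, 1 per gene. The letters GGGCGG, read on both strands, were present in the windows of PARP1, PARP12, FOXL2 and SLFN11 and in 43.8% of all promoters. The letters CCAAT were present in those of PAX8 and SLFN11 and in 35.6% of all promoters. A match of letters is a description of the window and not a bound site. The genes shown were picked by their levels, so these counts cannot show whether CG content follows level.

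In the DMSO libraries 12172 of 31721 listed genes (38.37%) were expressed, among them 10019 of 16220 protein-coding genes (61.77%). Of the coding genes, 3828 were silent, 2373 weak, 5238 lay between 1 and 10 FPKM, 4418 between 10 and 100, 345 between 100 and 1000, and 18 at 1000 FPKM or above. The median of the expressed coding genes was 9.32 FPKM. Outside the coding genes, 482 of 3222 antisense genes, 345 of 2644 long intergenic RNAs and 284 of 3630 processed pseudogenes were expressed. Values of antisense genes and pseudogenes are uncertain, since the use of strand and the treatment of shared reads in counting are not given in the sources used here. As many as 3294 listed genes were at 0 in both libraries.

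RNA of the mitochondrial genome and of the translation machinery led the ranking. MT-CO1, the catalytic subunit of cytochrome c oxidase, was first at 7654 and 7494 FPKM, and MT-CO2 was next at 5727 and 5838 FPKM. MT-CO3, MT-ND4, MT-ND1, MT-ND3, MT-ATP6, MT-ND2, MT-ND6 and MT-ND5 followed among the coding genes with means between 4697 and 1693 FPKM. Mitochondrial genes took 16.18% and 15.45% of all FPKM but 5.194% and 4.943% of the recovered reads, since FPKM weights these short genes upwards. RPS12, a protein of the small ribosomal subunit, was the highest named nuclear coding gene at 1596 and 1638 FPKM. EEF1A1, which carries aminoacyl-tRNA to the ribosome, had 1366 and 1423 FPKM, and the chaperone HSP90AB1 had 1390 FPKM in both libraries. RPS27 (1382 FPKM), RPL41 (1145), the RNA-binding protein YBX1 (1012), ACTB (997) and RPS2 (987) came next by mean FPKM among named nuclear coding genes, and MT-CYB (1460) and MT-ND4L (1335) lay among them. The 80 listed cytosolic ribosomal protein genes together took 7.926% and 8.026% of all FPKM, and 78 of them were expressed.

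The highest named RNAs that code for no protein were also mitochondrial or ribosomal. MT-RNR2, the large mitochondrial rRNA, had a mean of 3539 FPKM, MT-TP 774 and MT-RNR1 577. The processed pseudogenes RPL41P1 and RPS2P5 had means of 713 and 497 FPKM, and reads of the parent genes RPL41 and RPS2 could be counted there. The identifiers ENSG00000277105 and ENSG00000276737, without a name in the annotation used, ranked 4 and 12 with means of 4681 and 1871 FPKM. In all, 475 genes made up 50% of the FPKM of replicate 1 and 488 that of replicate 2.

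The libraries ranked genes in nearly the same order. Across all 31721 genes, Pearson's r of log2(FPKM + 1) was 0.994 and Spearman's rho 0.921, and across the 12172 expressed genes they were 0.995 and 0.992. These are descriptions across genes, which are not independent replicates. Whole reads could be recovered for 28838 genes, which held 30122447 reads in replicate 1 and 27591512 in replicate 2. Of 14121 genes with at least 10 reads in each library, 2163 (15.3%) had a ratio between the libraries outside the 95% counting interval around equality, where counting error alone would put about 5%. This share grew with depth, to 6.9% at 10 to 100 reads, 12.5% at 100 to 1000, 21.2% at 1000 to 10000 and 49.5% above. The differences were small in size. Of 4937 named genes at 10 FPKM or more, 99.45% lay within 1.2-fold, 27 differed by more, 2 by over 1.5-fold and none by over 2-fold.

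**Figure D1:**
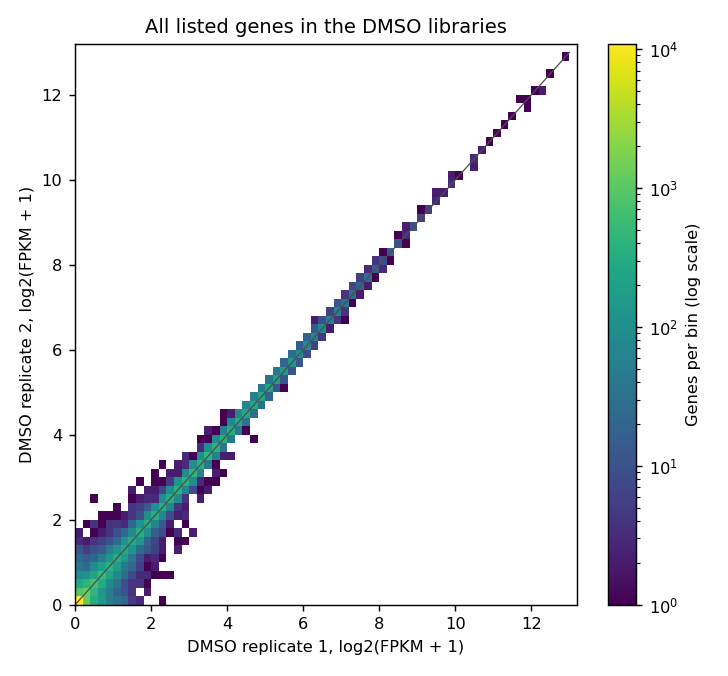
Density of all 31721 listed genes by log2(FPKM + 1) in DMSO replicate 1 (x axis) and DMSO replicate 2 (y axis), in bins of 0.2 coloured by the number of genes on a log scale, with the line of equal values. Genes lie along the line over the whole range, and the spread is widest at the low end.

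The named genes at 10 FPKM or more that differed most between the libraries were short RNAs. SNORD83A, a small nucleolar RNA, had 16.8 and 9.62 FPKM, and SNORD17 had 10.4 and 17.3 FPKM. MIR1254-1, CR392039.3, AC099560.2 and LINC00106 were the others highest in replicate 1 relative to replicate 2, and RF00154, MIR196A1, MIR3687-1 and MIR3176 the others highest in replicate 2 relative to replicate 1. None of these 10 genes codes for a protein, and of the 27 genes beyond 1.2-fold 7 did, out of 4781 coding genes at that level. Among the members of the 51 gene lists used here, 87 of 407 with enough reads (21.4%) lay beyond counting error, with 67 higher in replicate 2. The cell-cycle lists had 16 such members of 49 (32.7%), and all 16 were higher in replicate 2, with a median absolute log2 ratio over the 49 of 0.06. Over all genes the share was 15.3%, with 21.2% at 1000 to 10000 reads and 49.5% above. Median log2 ratios of replicate 1 over replicate 2 at these 2 depths were -0.0152 and -0.0191, so genes in general leaned to replicate 2. Whether the lists differ from other genes of like depth was not tested. Among list members at 5 FPKM or more, the largest ratio belonged to SMAD9, a SMAD of BMP signalling, at 4.39 and 5.82 FPKM. POLM, a polymerase of end joining, was next at 7.35 and 5.89 FPKM.

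The gene lists held 660 genes in 51 lists, of which 613 genes were listed in the table. Of these 613, 409 (66.72%) were expressed, 73 weak and 131 silent, beside 61.77% of all listed coding genes expressed. List medians were highest for the MCM proteins at 77.6 FPKM. Homologous recombination had 6.83, mesenchymal markers 2.82, epithelial markers 0.0555 and WNT ligands 0.0439 FPKM. Several lists were lower still, among them endothelial markers at 0.0028 FPKM and the single listed HOXA gene at 0. The median over all listed genes, coding or not, was 0.355 FPKM. By theme, 49 of 58 cell-cycle members, 126 of 143 repair members, 45 of 63 p53 and BCL2 members, 161 of 261 signalling members and 20 of 74 lineage members were expressed. NEIL1, a glycosylase of base excision repair, was the only member on opposite sides of 1 FPKM in the libraries, at 1.10 and 0.864 FPKM.

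Most markers of the epithelial list did not follow the epithelial label. Of 16 listed epithelial markers 1 was expressed, the tight junction gene OCLN at 1.87 and 1.90 FPKM. CDH1, which codes for E-cadherin, had 1 read in each library, or 0.00498 and 0.00548 FPKM. EPCAM, an epithelial adhesion molecule, had 0.159 and 0.229 FPKM, and MUC1, an apical mucin, had 0.430 and 0.395 FPKM. The keratins KRT8, KRT18 and KRT19 had means of 0.144, 0.0827 and 0.0132 FPKM, and the claudins CLDN7, CLDN4 and CLDN3 had 0.186, 0.122 and 0.0507. The splicing factor ESRP1 and MUC16, the source of the serum marker CA-125, had no read in either library, where 3 reads would be 0.0208 and 0.00232 FPKM. The epithelial set summed to 3.30 and 3.10 FPKM. KRT7 and GRHL2 were not listed. The list does not hold every keratin and claudin. Of 21 keratin genes in the table KRT10 alone was expressed, at 16.0 and 17.0 FPKM. Of 16 claudins 3 were expressed, led by CLDN6 at 11.9 and 10.3 FPKM.

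Markers of Müllerian epithelium and its carcinomas were low throughout. None of the 10 listed was expressed, and FOLR1, the folate receptor of serous carcinoma, was highest at 0.644 and 0.558 FPKM. NAPSA and MSLN had means of 0.482 and 0.236 FPKM. PAX8 and WFDC2 had no read in either library, where 3 reads would be 0.0137 and 0.0735 FPKM. FOXJ1, ESR1, MECOM and PAX2 lay between 0.0472 and 0.0104 FPKM. WT1, EMX2, PGR and SOX17 were not listed.

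Of 18 mesenchymal markers 12 were expressed, and the list summed to 673 and 687 FPKM. VIM, the intermediate filament vimentin, had 248 and 253 FPKM, COL3A1, a fibrillar collagen, had 171 and 170, and the factor TWIST1 had 149 and 155. Each of these exceeded the sum of the whole epithelial set in the same library. SPARC, a matrix glycoprotein, had a mean of 42.7 FPKM, SNAI2 30.5, TAGLN 9.46, COL1A2 8.03, ZEB1 6.49, ACTA2 3.16, CDH2 2.49, PDGFRB 2.36 and COL1A1 1.16. The set was split within its families. TWIST2, SNAI1 and ZEB2, the paralogues of the 3 expressed factors, had means of 0.0672, 0.135 and 0.0500 FPKM, so that TWIST1, SNAI2 and ZEB1 made up 99.96%, 99.56% and 99.23% of their pairs. FN1, which codes for the matrix protein fibronectin, had 0.103 FPKM on average, MMP2 0.00998, and CDH11, an adhesion molecule of mesenchyme, no read in either library.

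Several markers of other programmes stood out by level. NES, the intermediate filament of neural progenitors, had 272 and 259 FPKM, and the synaptic vesicle gene SYP 4.40 and 4.28, while SOX2 had no read in either library and TUBB3 and NEFL were silent. LIN28A, an RNA-binding protein of embryonic cells that blocks maturation of let-7 microRNAs, had 132 and 136 FPKM. LIN28B had 28.4 and 30.3 FPKM and SALL4, a zinc finger factor of embryonic stem cells, 30.5 and 31.5 FPKM. The core pluripotency factors POU5F1 and NANOG were silent at 0.0721 and 0.0117 FPKM. FOXL2, the factor of ovarian granulosa cells, had 11.96 and 12.27 FPKM, and AMH, the anti-Müllerian hormone, 3.20 and 3.39 FPKM. NR5A1, STAR, GATA4 and DAZL, other genes of the gonad, were silent.

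Markers of other cells that a culture could hold were low. Of 4 listed blood markers none was expressed, with LYZ at a mean of 0.0436 FPKM, and CD68 and HBB at 0. CD68 shares most of its exon bases with other annotated genes, so its value is uncertain. PECAM1, VWF and CDH5 of endothelium were at 0.00615 FPKM or below. Of the liver, melanocyte and muscle markers PMEL was highest at 0.428 FPKM, followed by MLANA and APOA1, with DES and ALB silent.

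**Figure D2:**
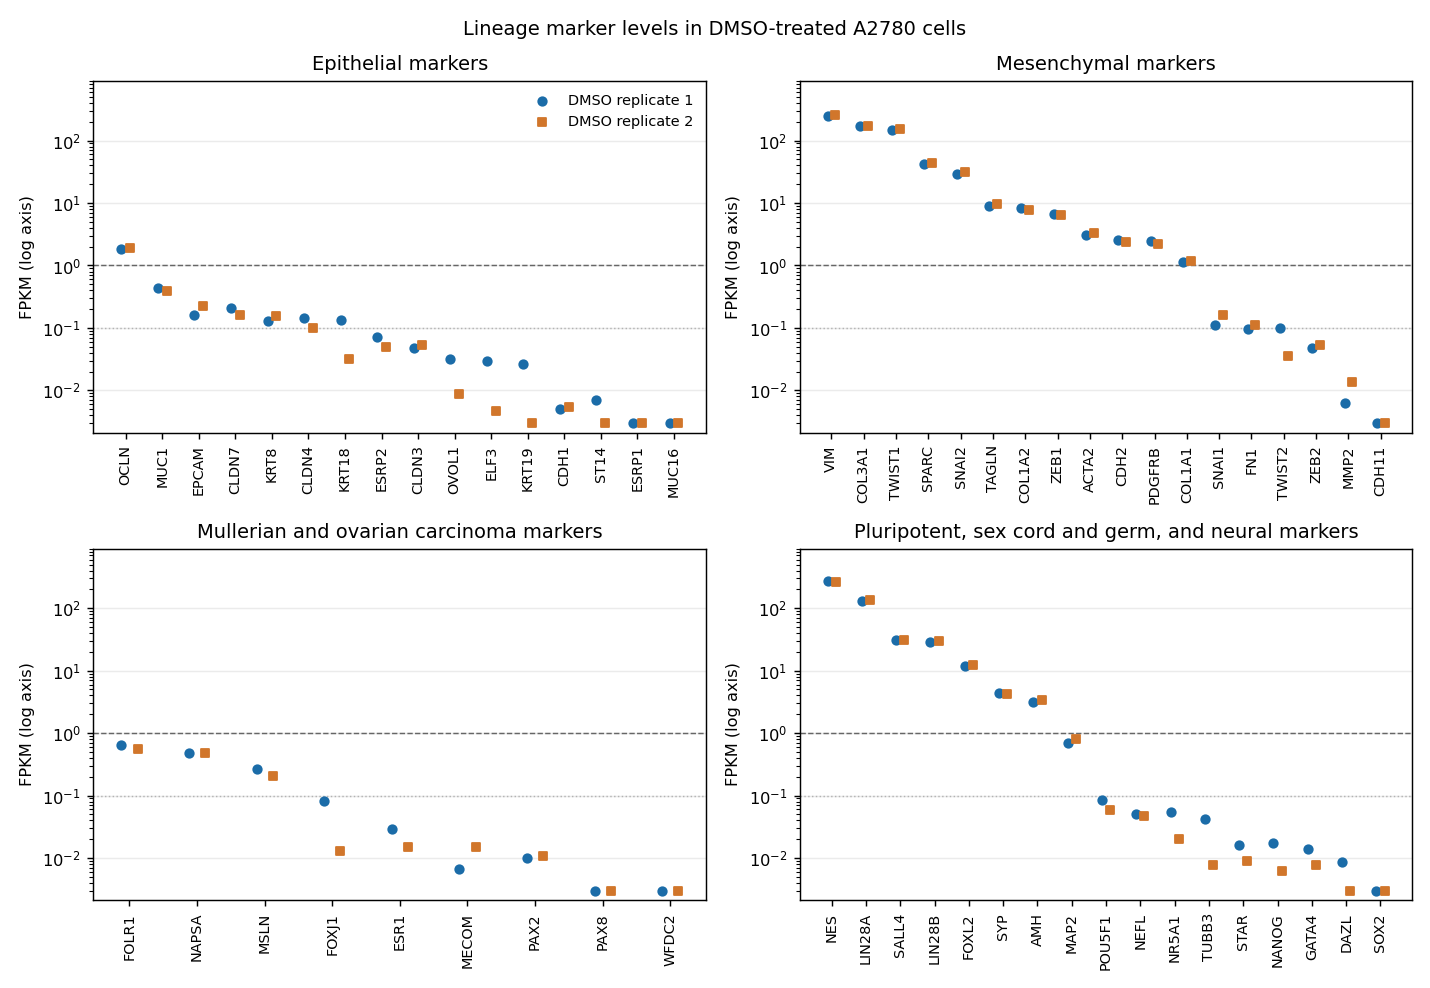
FPKM of lineage markers in DMSO replicate 1 (circles) and replicate 2 (squares) on a log axis, with dashed and dotted lines at 1 and 0.1 FPKM and values under 0.003 FPKM drawn at 0.003. VIM, COL3A1, TWIST1, NES and LIN28A lie above 100 FPKM, while every epithelial marker but OCLN and every Müllerian marker shown lies below 1 FPKM.

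HOX genes record position along the body axis and are laid out in the genome in the order of their paralogue numbers. The clusters differed as blocks. In HOXB, 9 of 10 genes were expressed, in HOXC 6 of 9, in HOXD none of 5 listed, and in HOXA the single listed gene, HOXA13, had no read. HOXB9 was highest at 77.4 and 77.6 FPKM. HOXB8 had 36.5 FPKM in both libraries, HOXB2 34.2 in both, and HOXB7 30.2 and 31.2. From HOXB3 to HOXB9 the mean level grew with each paralogue number, through 9.78, 15.1, 21.4, 26.1, 30.7, 36.5 and 77.5 FPKM, and no neighbours in this order overlapped between the libraries. HOXB13, which lies apart from the rest of the cluster, had 1.14 FPKM and HOXB1 had no read in either library.

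In HOXC the middle of the cluster was on. HOXC6 had 31.1 and 30.4 FPKM, HOXC8 29.3 and 27.8, HOXC10 25.8 and 24.7, and HOXC9 23.2 and 22.6. HOXC4 had a mean of 5.23 FPKM, HOXC11 1.19 and HOXC5 0.271, of which HOXC5 shares most of its exon bases with other genes. HOXC12 and HOXC13 were silent. HOXD13, HOXD9 and HOXD10 had means of 0.0433, 0.0164 and 0.0120 FPKM, and HOXD4 and HOXD8 had no read, with HOXD4 also in shared exons.

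**Figure D3:**
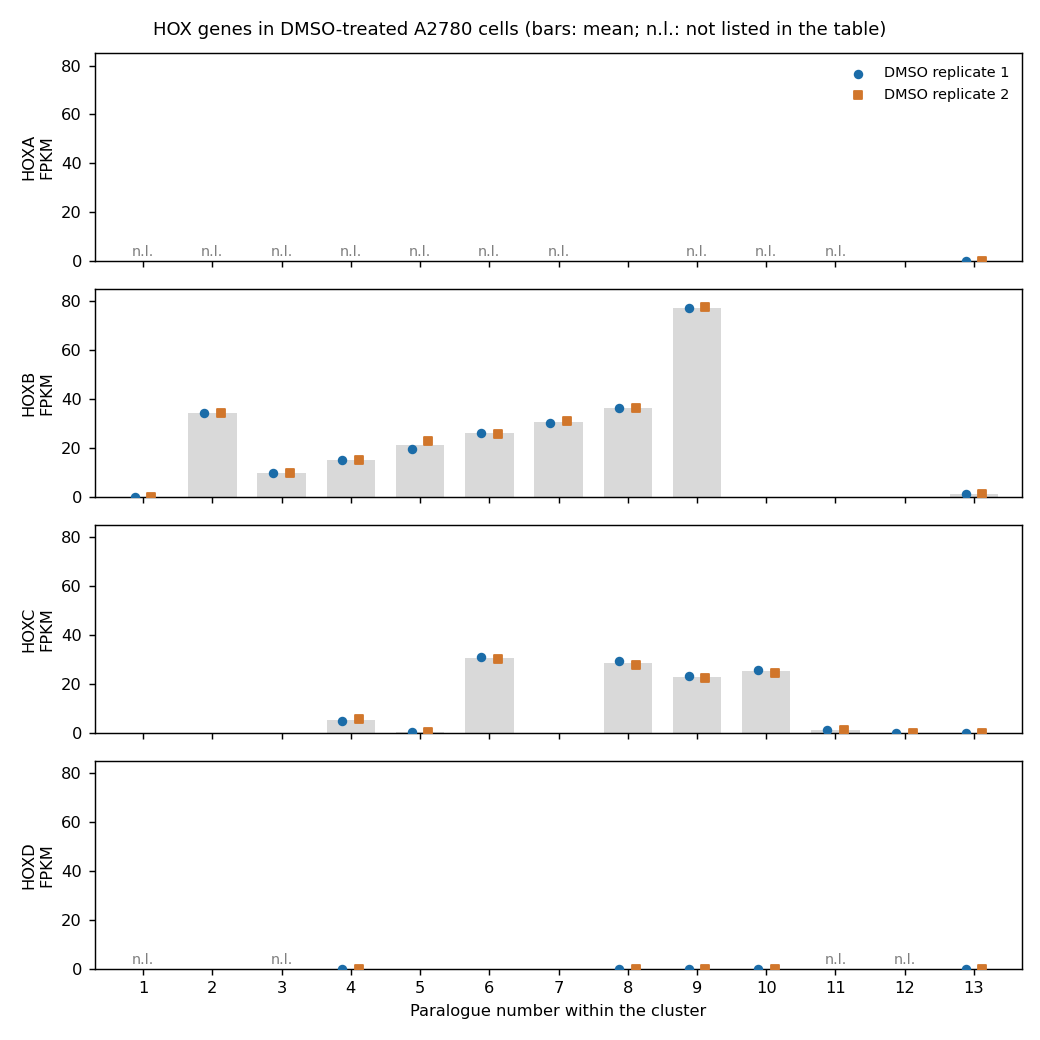
FPKM of the HOX genes by cluster (panels, top to bottom HOXA to HOXD) and paralogue number (x axis), with grey bars for the mean and points for DMSO replicates 1 (circles) and 2 (squares); n.l. marks genes not listed. HOXB2 to HOXB9 and HOXC6 to HOXC10 carry the signal, with HOXB9 at 77.5 FPKM and HOXD at most 0.0433.

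The cyclins and kinases of each cell-cycle step were expressed, most through a dominant member. Of the D cyclins, which start G1 progression, CCND2 led at 91.4 and 97.6 FPKM, followed by CCND1 at 64.6 and 66.5 and CCND3 at 14.47 and 13.72, with no overlap between them. CDK4, the partner of the D cyclins, had 54.7 and 57.3 FPKM, against 0.9333 and 0.9198 for its paralogue CDK6, so CDK4 made up 98.4% of the pair. The unique exon share of CDK4 was 56.8%, which bounds how well its level is known. CCNE1, which drives entry into S phase, had 28.0 and 27.5 FPKM against 2.08 and 2.33 for CCNE2, and CDK2 had 11.5 and 11.6. CCNA2 (69.0 FPKM on average), CCNB1 (111), CCNB2 (23.3) and CDK1 (50.3) of S phase and mitosis were expressed, as was the CDK-activating kinase CDK7 (17.3). The germline cyclins CCNB3 and CCNA1 had 0.720 and 0.00641 FPKM.

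Of 7 inhibitors of these kinases 5 were expressed. CDKN1B, which codes for p27, had 33.6 and 36.1 FPKM, CDKN2C (p18) 21.3 and 23.9, and CDKN1A (p21) 12.4 and 12.7. CDKN2D had a mean of 4.19 FPKM and CDKN2A (p16 and ARF) 3.43, while CDKN1C and CDKN2B were weak at 0.752 and 0.130. The pocket proteins that bind E2F were all expressed, with RB1 at 9.61 and 9.58 FPKM, RBL2 at 6.32 and 5.99, and RBL1 at 5.28 and 5.81. All 10 E2F and DP factors were expressed. TFDP1, the DP partner, was highest at a mean of 74.3 FPKM, followed by E2F4, a repressor E2F, at 50.2 and E2F1, an activator, at 34.9. E2F8 was lowest at 3.62.

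Of 8 Polo and Aurora kinase genes 5 were expressed, and of 6 CDC25 and WEE genes 5. CDC25A, a phosphatase that activates CDKs, had a mean of 35.9 FPKM, CDC25B 24.99 and CDC25C 5.01, and the opposing kinases PKMYT1 and WEE1 had 17.1 and 8.60, with oocyte-type WEE2 silent at 0.0271. AURKA, of the spindle poles, had 53.6 and 56.7 FPKM and AURKB, of the centromere, 52.7 and 54.5, and this was the only one of 51 families whose leading members overlapped between libraries. PLK1 had 43.4 and 43.0 FPKM and PLK4, of centriole duplication, 14.3 and 13.9, whereas PLK5, PLK2 and AURKC were weak. All 9 MCM genes were expressed. The subunits of the replicative helicase ranged from MCM7 at 181 and 187 FPKM, MCM3 at 127 and 130 and MCM2 at 92.9 and 94.5 down to MCM5 at 39.1 and 40.6, and MCM9 was lowest of the 9 at 1.71.

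Poly(ADP-ribose) polymerases attach ADP-ribose chains or units to proteins at DNA breaks and elsewhere, and PARP1 makes most of the chains at breaks. PARP1 had 107.0 and 107.2 FPKM and ranked 351 of all listed genes. TNKS2, a tankyrase of telomere and WNT regulation, was next in the family at 16.5 and 17.0 FPKM, PARP4 had 15.02 and 15.63, and PARP2, which also acts at breaks, 13.19 and 12.33. PARP1 made up 87.3% of the summed level of PARP1, PARP2 and PARP3. Of 17 members 13 were expressed. PARP9 and PARP10 were weak at 0.864 and 0.342 FPKM, PARP15 had 2 reads in all, and PARP12 had none, where 3 reads would be 0.0162 FPKM. PARG, which degrades the chains, had 8.10 and 8.61 FPKM, ADPRS, which removes ADP-ribose from serine, 22.4 and 23.1, and MACROD1 18.1 and 18.7. MACROD2 had no read in either library, where 3 reads would be 0.00889 FPKM.

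Double-strand break repair was expressed nearly throughout. Of 25 homologous recombination genes 24 were expressed, led by the nuclease EXO1 at a mean of 19.5 FPKM, RBBP8 at 15.7 and RAD54L at 14.6. BRCA1 had 12.1 and 13.1 FPKM and BRCA2, a mediator of strand exchange, 4.79 and 5.08. RAD51B was the weak member at 0.474 FPKM. All 13 Fanconi anaemia genes were expressed, led by UBE2T at 75.1 FPKM, FANCI at 26.1 and FANCL at 22.9. In end joining 16 of 17 were expressed. XRCC6 (Ku70) had 275 and 278 FPKM, XRCC5 (Ku80) 136 and 141, and the kinase PRKDC 78.0 and 80.9, while NHEJ1, which shares most of its exon bases with another gene, had 3 reads in each library.

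Mismatch repair genes spanned a wide range of levels. MSH6, which recognises base mismatches, had 34.5 and 35.1 FPKM, and MSH3, which recognises longer loops, 5.71 and 6.08. Of the MutL genes PMS2 had 10.9 and 11.4 FPKM and PMS1 8.75 and 8.47, and MLH3 was weak at 0.114 and 0.0972. Several repair genes share a start region with a neighbour on the other strand. Over all 671 head-to-head coding pairs within 1000 bases with both genes listed, 440 had both, 185 had 1 and 46 had neither gene expressed.

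The remaining repair lists showed few gaps. Of 20 base excision genes 19 were expressed, led by APEX1 at 214 FPKM, FEN1 at 63.8 and UNG at 40.3, with NEIL1 the exception. Of 13 nucleotide excision genes 11 were expressed, with RAD23B highest at 72.1 FPKM and DDB1 at 36.0. ERCC5 and ERCC6 were weak at 0.851 and 0.535 FPKM, and ERCC5 shares most of its exon bases with another gene. Of 16 checkpoint genes 14 were expressed, led by TIMELESS at 41.7, TOPBP1 at 18.6 and CLSPN at 15.5. The kinases CHEK2 and CHEK1 had 13.1 and 11.8 FPKM and ATM and ATR 5.14 and 4.23. RAD9B was weak and ATRIP silent at 0.0609 FPKM.

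Genes tied to drug response lay at both extremes. TOP2A had 91.1 and 95.9 FPKM, TOP1 73.9 and 74.0, and TOP2B 42.4 and 42.8, all topoisomerases. TYMS, ABCC1 and MGMT had means of 28.8, 16.3 and 3.98 FPKM. SLFN11, whose protein blocks stressed replication forks, had 1 read in replicate 2 and none in replicate 1. The efflux pump ABCB1 had no read in either library, where 3 reads would be 0.0175 FPKM, and ABCG2 was weak at 0.156 FPKM.

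**Figure D4:**
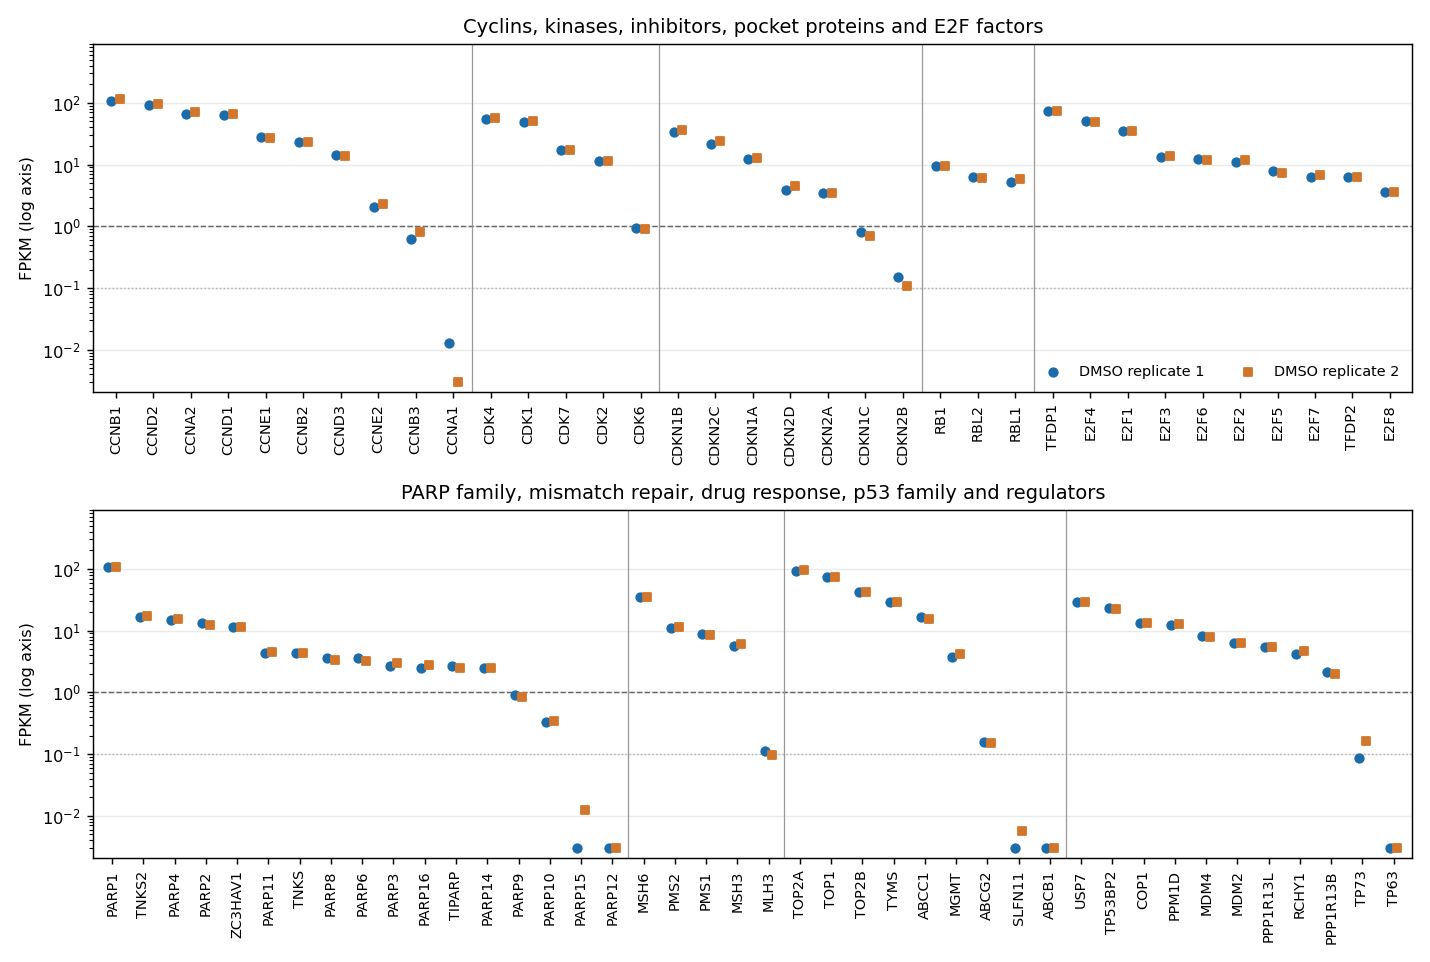
FPKM in DMSO replicate 1 (circles) and replicate 2 (squares) on a log axis for 35 genes of the cell-cycle engine (top) and genes of the PARP, mismatch repair, drug response and p53 lists (bottom), with dashed and dotted lines at 1 and 0.1 FPKM and values under 0.003 FPKM drawn at 0.003. PARP1 lies at 107 FPKM above the rest of its family, CDK6 falls just under 1 FPKM, and SLFN11, ABCB1, PARP12 and TP63 lie at the bottom.

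The p53 paralogues were low and the regulators of the pathway expressed. TP73 had 0.0864 and 0.165 FPKM and TP63, an epithelial stem cell factor, no read, where 3 reads would be 0.0136 FPKM. Of the regulators USP7 had 29.6 and 28.9 FPKM and TP53BP2 22.97 and 22.35. MDM4 and MDM2, which restrain p53, had 8.23 and 7.77 and 6.30 and 6.27 FPKM, so MDM4 was higher by 1.27-fold in the mean. Of 35 listed p53 target genes 25 were expressed. BAX, a pore-forming effector of apoptosis, led at 58.4 and 60.2 FPKM, followed by CCNG1 at 46.4 and 46.8 and TRIAP1 at 41.0 and 43.1. THBS1, TP53INP1, PMAIP1, TP53AIP1 and SERPINB5 were silent.

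In the BCL2 family 10 of 16 listed members were expressed. Among the guardians MCL1 led at 92.3 and 90.6 FPKM and made up 81.3% of the summed level of its group, with BCL2L2 at 13.8, BCL2L1 at 6.48 and BCL2 weak at 0.704. Among the effectors BAX was followed by BOK at 24.0 and BAK1 at 12.3 FPKM. The BH3-only genes, which set off apoptosis, were low, with BBC3 (PUMA) highest at 5.36 and 5.40 FPKM, BID at 3.30, BAD at 2.94 and BCL2L11 (BIM) at 1.91. PMAIP1 (NOXA), HRK and BCL2L10 were silent, with 2 reads of PMAIP1 in each library.

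Receptor tyrosine kinases were expressed in 27 of 52 listed members, and 14 were silent. DDR2, a receptor for fibrillar collagen, was highest at 38.6 and 38.9 FPKM, followed by PTK7 of WNT signalling at 25.04 and 25.24 and IGF1R at 18.5 and 18.3. EPHA2 (17.6 FPKM on average), EPHB4 (16.4), FGFR1 (15.7), DDR1 (12.2), RYK (11.2) and MERTK (10.1) were the others above 10. Among the ERBB receptors ERBB2 had 9.30 and 9.81 FPKM, ERBB4 3.64 and 3.85, EGFR 1.46 and 1.55, and ERBB3 0.178 and 0.274. MET and KIT were weak at 0.554 and 0.563.

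Below the receptors all 10 genes of the RAS to ERK cascade were expressed. HRAS had 42.1 and 39.7 FPKM, MAP2K2 34.5 and 36.5, and NRAS 23.04 and 23.95, with BRAF lowest at 4.16 and 3.66. In reads, not divided by length, NRAS exceeded HRAS. Of 12 genes of the PI3K group 9 were expressed, led by AKT1 at 21.7, AKT2 at 16.4 and PIK3R3 at 7.55, in mean FPKM. PIK3CG had no read, and PIK3R2, at 3 reads, shares most of its exon bases with another gene. Of 8 MTOR pathway genes 7 were expressed, led by RHEB at 38.4, MLST8 at 31.7 and RPTOR at 17.3, and the MTOR inhibitor DEPTOR was weak at 0.167.

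WNT signalling was expressed at the level of receptors and weak at the level of ligands. Of 15 listed ligands 1 was expressed, WNT10B at 3.91 and 4.06 FPKM, and WNT3 and WNT9A followed at 0.667 and 0.233. All 11 listed Frizzled and LRP receptors were expressed, led by FZD8 at 47.8 and 46.3 FPKM, FZD2 at 32.2 and 35.6 and FZD7 at 29.3 and 29.1. DKK1, a secreted inhibitor that binds LRP receptors, had 168.4 and 168.5 FPKM and was the highest of 16 genes of the wider pathway, of which 11 were expressed. CTNNB1, the effector β-catenin, had 60.8 and 63.0 FPKM and LGR4 33.2 and 35.3, whereas AXIN2, a feedback target of the pathway, had 1.76 and 1.61. RNF43, LEF1 and LGR6 were silent, and RNF43 shares most of its exon bases with another gene.

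In the TGF-beta superfamily, receptors and SMADs were expressed more fully than ligands. Of 10 listed TGF-beta and activin ligands 4 were expressed, led by TGFB1 at 51.1 and 50.1 FPKM, TGFB2 at 13.98 and 13.76 and GDF11 at 9.12 and 8.45, with NODAL, INHBC, MSTN and INHBA silent. Of 10 listed BMP ligands 1 was expressed, BMP7 at 2.01 and 2.08 FPKM. BMP8B and BMP5 were weak at 0.533 and 0.143, and BMP8A, BMP6, BMP2, GDF5, BMP4, GDF6 and GDF7 were silent. Of 12 receptors 9 were expressed, led by BMPR1A at 10.02, TGFBR1 at 9.48 and BMPR2 at 8.88, with ACVRL1 and ACVR1C silent. All 8 SMAD genes, which carry the signal to the nucleus, were expressed, led by SMAD5 at 11.3, SMAD6 at 6.90 and SMAD7 at 6.34.

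NOTCH3 led the NOTCH receptors at 36.3 and 36.5 FPKM, followed by NOTCH2 at 12.96 and 13.27 and NOTCH1 at 7.93 and 7.73, and of the ligands JAG2 had 5.18, DLL3 4.65 and JAG1 1.35 on average. DLL4, NOTCH4 and DLL1 were silent. In the Hedgehog pathway the transducer SMO had 21.98 and 24.14 FPKM, GLI2 11.97 and 12.84, and GLI1, a target of the pathway, 8.90 and 9.67, while GLI3 and the ligands IHH and DHH were silent. All 12 Hippo genes were expressed, led by TEAD2 at 39.4, the coactivator YAP1 at 37.4 and TEAD4 at 37.3, with WWTR1 (TAZ) at 7.27. Of 11 JAK and STAT genes 9 were expressed, led by STAT6 at 18.04 and TYK2 at 17.9, with STAT5A and STAT4 silent. MYC had 93.8 and 92.8 FPKM and MYCL 0.371 and 0.254. MLX (15.2) and MXD4 (14.7) were next in the MYC network, in which 10 of 12 listed members were expressed.

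Nuclear receptors were split by class. Of 44 listed 21 were expressed and 18 silent. The orphan receptors NR2F6 and NR2F1 were highest at 113 and 119 and at 38.9 and 40.2 FPKM, and ESRRA had 21.8 and 22.7. The retinoic acid receptors RARG and RARA had means of 15.6 and 9.24 FPKM, against 0.0641 for RARB. Of the steroid receptors ESR2 and ESR1 had 0.0565 and 0.0221, NR3C2 0.0121, and NR3C1, the glucocorticoid receptor, 1 read in replicate 1 and none in replicate 2.

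**Figure D5:**
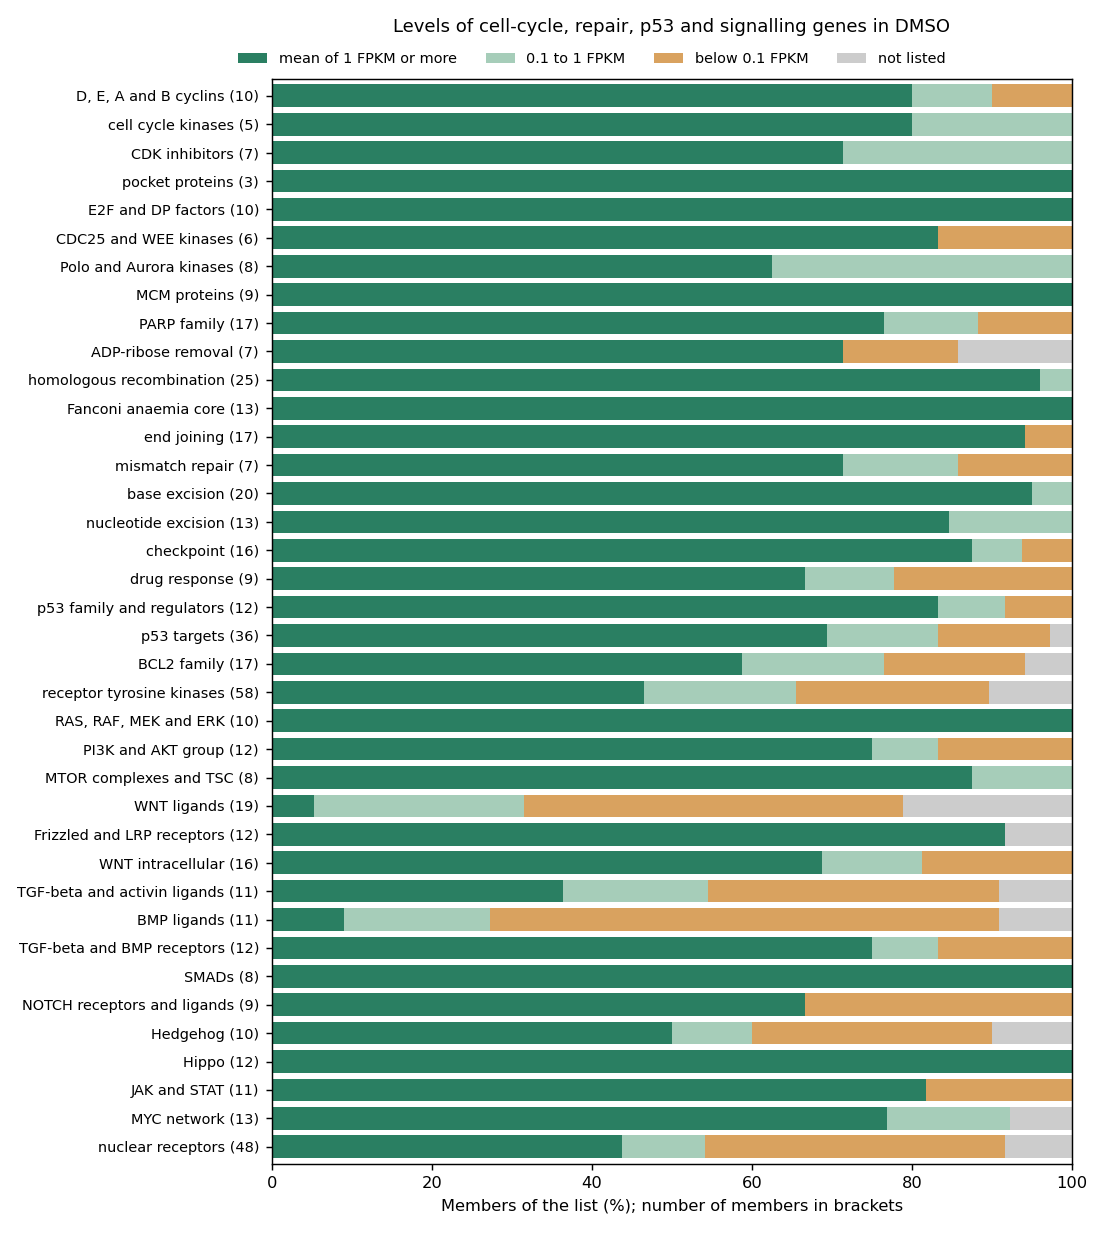
Share of each gene list (%, x axis; members in brackets) with a mean DMSO level of 1 FPKM or more, 0.1 to 1 FPKM, below 0.1 FPKM, or not listed, for 38 cell-cycle, repair, p53 and signalling lists. Replication, recombination, Hippo and SMAD lists are nearly full at 1 FPKM or more, while WNT and BMP ligands have 1 expressed member each.

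The share of the leading member varied widely between families and depends in part on family size. In 42 of 51 families the leading member held over 50% of the summed FPKM, and in 9 over 90%. In a family with 2 listed members, such as the E cyclins, the leader cannot hold less than 50%, whatever the levels. Most of the 9 families over 90% were such pairs. The median share was 63.41%, and the lowest was 30.4% for MCM7 in the helicase ring. The shares of the leading member differed by at most 5.01 percentage points between the libraries, in the TAM receptors led by MERTK at 10.5 and 9.60 FPKM.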

How the data were processed

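Polyadenylated RNA of A2780 cells was extracted with TRIzol, and NEBNext Ultra reagents were used for the libraries, per the labels' protocols. The submitters' processing notes name GRCh38 (hg38), STAR 2.5.1b, HTSeq 0.6.0 and CASAVA 1.8 but give them no role or order. The authors deposited FPKM values, 1 column per library, and no test was run on them here. Only the DMSO columns enter a level. Names, positions and exon lengths came from GENCODE 29 on GRCh38, which held 30945 of 31721 identifiers.

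Multiplying FPKM by exon length gave whole reads for 28838 genes (90.91%) in both DMSO libraries within 0.01 reads. These reads set the counting errors, which assume independent reads and cover counting error only, and the floor of 3 reads. FPKM totals were 295656 and 295620, so that 1 FPKM equals 3.38 TPM. Shared exons are those with under 50% of bases in no other gene. RefSeq promoters matched 12821 of 16220 listed coding genes (79.0%). This is below the 80% needed, so a planned comparison of promoter content by expression class is void and not reported.

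Members and lists were chosen with earlier results of these data known. Named are the 3 highest members of each list, the silent members where 8 or fewer, smaller families in full, the 20 highest coding and 5 highest other genes, and the 5 most different genes in each direction between the libraries. Some members are not reported here. The other named genes were chosen after their values were seen. Alternatives were thresholds of 0.5 and 2 FPKM, TPM, each library alone, reads not divided by length, a pseudocount of 0.1 and, added after seeing the data, members in mostly unshared exons. Python 3.11.15, numpy 2.4.6, pandas 2.3.3, scipy 1.17.1 and matplotlib 3.10.9 were used.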

Additional observations from a re-analysis of the deposited data

How the results depend on the processing

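Counts of expressed genes, of expressed list members and of family leaders kept within 1.5 times of their main value under each alternative run, except as given here. With 1 library left out, 12175 to 12297 genes and 409 to 410 list members were expressed and all 51 leading members stayed the same. A threshold of 0.5 FPKM gave 14569 expressed genes and 2 FPKM gave 10199, against 12172, and 1 TPM in place of 1 FPKM gave 16662. With reads not divided by length, 26 of the 28 families with whole reads for every member kept their leader. HRAS and AKT1 gave way to NRAS and AKT2. The size of the leading member's share was less stable and moved in 26 of these 28 families. It went from 54.47% to 78.7% in the ERK kinases and from 79.45% to 62.66% in the tankyrases. In the MYC proteins it went only from 99.67% to 99.44%. A pseudocount of 0.1 gave an r of 0.976. The TPM scale moved 6 of 51 lists, 0.5 FPKM moved 3 and 2 FPKM moved 1, each with at most 2 expressed members: at 2 FPKM no epithelial marker was expressed, and by TPM 2 epithelial and 2 Müllerian markers were. Leaving out members in shared exons moved none. No paired analysis was possible because the values come from 1 group and no test. Values of members at 0 to 3 reads are limited by depth.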

Other observations

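The high LIN28A and LIN28B levels led to a look at other oncofetal genes, chosen after the values were seen. HMGA2, a chromatin protein and let-7 target, had 116 and 118 FPKM. The fetal RNA-binding proteins IGF2BP1, IGF2BP2 and IGF2BP3 had means of 68.1, 33.5 and 7.98 FPKM, and TRIM71, another let-7 target, had 20.8 and 20.4. CRABP2, a carrier of retinoic acid, had 275 and 272 FPKM, against 3 reads in each library for its paralogue CRABP1. The tumour antigen PRAME had 25.8 and 23.2 FPKM. The fetal genes GPC3 and DLK1 had a mean of 0.653 FPKM and no read.

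The olfactory receptor and keratin families were nearly empty of expressed members, beside 61.77% of all listed coding genes expressed. Of 35 listed olfactory receptor genes none reached 1 FPKM, and OR1F1 was highest at 0.446. Of 21 listed keratin genes KRT10 alone was expressed, at 16.0 and 17.0 FPKM. Of 16 listed claudins 3 were expressed, led by CLDN6, a claudin of embryonic epithelium, at 11.9 and 10.3 FPKM. Other large families were not empty, with 11 of 41 listed collagens and 302 of 466 listed ZNF zinc finger genes expressed.

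Expression did not differ much between chromosomes, with 56.43% of listed coding genes expressed on chromosome 6 and 65.82% on chromosome 9 at the ends of the range. Among neighbours in genome order, 65.77% of the genes next to an expressed coding gene were expressed and 55.31% of those next to one that was not.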
